A study of Mus musculus and Sus scrofa with 18 samples.

Results

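Heat shock proteins and chaperones were followed through 10 genes in the mouse striatum, namely Hspa1a, Hspa1b, Hspa8, Hspa5, Hsp90aa1, Hsph1, Hspb1, Dnajb1, Dnajb5 and Hsf1. They were given as a list of names, drawn up with earlier results of these data known. All 10 were found among the 55357 genes counted, and all 10 were among the 19463 genes that passed the filter on low counts and were tested.

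Striatal RNA of 9 mice was sequenced, 3 mice per group and 1 library per mouse. WT mice received AAV9 with a control guide RNA (Ctrl gRNA) and no CasRx, the RNA-cutting Cas13d enzyme. Untreated HD 140Q-KI mice received AAV9-CasRx with the Ctrl gRNA, and treated HD 140Q-KI mice received AAV9-CasRx with 4 gRNAs against human HTT exon 1 (gRNA 1 and 2 on 1 vector, 3 and 4 on another). HD mice were heterozygous, on a C57BL/6J breeding background, and carried exon 1 of human HTT, with its CAG repeat expanded, in 1 copy of their own Htt gene. The study injected mice bilaterally into the striatum, those for sequencing at 6 months of age, and took tissue 6 weeks later. CasRx was driven by the CAG promoter, which is not limited to neurons, and the gRNAs by U6 promoters in vectors that also carry GFP. Between WT and either HD group, knock-in allele and CasRx differ together and cannot be told apart. Sex markers differ from WT too, since Y-linked genes were counted in all 3 WT mice, in no treated mouse and in untreated replicate 1 only. Treated and untreated mice differ by design in the gRNA. They also differed in sex markers, since Y-linked genes were counted in untreated replicate 1 and in no treated mouse.

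Chaperones bind unfolded or misfolded proteins and help them fold, disaggregate or reach the proteasome. HSP70 proteins work in cycles of ATP hydrolysis that J-domain proteins start and HSP110 proteins reset, HSP90 proteins act later on partly folded clients, and small heat shock proteins hold unfolded chains without ATP. Under stress, the transcription factor HSF1 binds repeated GAA units, the heat shock element, upstream of many of these genes, while a separate response in the endoplasmic reticulum (ER) controls Hspa5 through the ER stress element. In Huntington's disease models these proteins are studied because they act on aggregates of mutant huntingtin.

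Sequences upstream of 5 genes are shown because these members had the 5 largest fold changes against WT in both HD groups. They are the 150 bases before the annotated start in RefSeq on GRCm38.p6, and 7 of the 10 genes had an entry in that table. Capitals mark a heat shock element with 2 facing units (GAANNTTC, or its other arrangement TTCNNGAA, each of which reads the same on both strands) or, in Hspa5, an ER stress element (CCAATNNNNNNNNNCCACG, searched on both strands). Hspa1a lies at chr17:34972157-34972306 on the minus strand, Hspa1b at chr17:34959239-34959388 on the minus strand, Hspb1 at chr5:135887769-135887918 on the plus strand, Hsph1 at chr5:149636337-149636486 on the minus strand and Hspa5 at chr2:34771940-34772089 on the plus strand.
Hspa1a: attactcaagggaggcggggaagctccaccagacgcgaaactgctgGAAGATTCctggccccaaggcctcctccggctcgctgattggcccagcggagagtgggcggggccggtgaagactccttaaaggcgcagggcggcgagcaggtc
Hspa1b: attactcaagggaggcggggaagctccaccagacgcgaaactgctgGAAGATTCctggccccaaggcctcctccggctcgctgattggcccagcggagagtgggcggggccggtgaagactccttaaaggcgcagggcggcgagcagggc
Hspb1: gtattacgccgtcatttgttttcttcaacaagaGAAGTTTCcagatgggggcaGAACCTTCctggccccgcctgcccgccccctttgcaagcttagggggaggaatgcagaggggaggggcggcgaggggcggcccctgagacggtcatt
Hsph1: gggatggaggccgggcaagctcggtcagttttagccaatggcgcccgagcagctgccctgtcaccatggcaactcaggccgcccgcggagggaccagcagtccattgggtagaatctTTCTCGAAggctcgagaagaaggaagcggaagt
Hspa5: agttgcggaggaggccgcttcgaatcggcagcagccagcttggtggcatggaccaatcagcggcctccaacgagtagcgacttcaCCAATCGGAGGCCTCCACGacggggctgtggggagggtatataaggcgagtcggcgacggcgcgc

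The upstream stretches of Hspa1a and Hspa1b differed at 1 of 150 bases, and each held GAAGATTC at 104 to 97 bases before the start. Hspb1 held GAAGTTTC and GAACCTTC. Hsph1 held TTCTCGAA and, from base 37 to base 49 after the start, the match TTCTGGAAAGTTC to the element with 3 units, in which matches of the 2-unit forms overlap. Searched over the 300 bases from 250 before to 50 after the start, 15.1% of all 32851 promoters in the table held at least 1 of the 2-unit forms, 0.603% held the form with 3 units (GAANNTTCNNGAA or its reverse complement), and 0.119% held the ER stress element. Of the 7 members with an entry, 4 held a 2-unit form and Hspa5 held the ER stress element. The windows searched for Dnajb1 and Dnajb5 held none of these letters. Only the first entry of each member was searched, and Hsph1, Dnajb1 and Dnajb5 have 2, 2 and 3 entries, so their other annotated starts were not examined. A match describes the letters only.

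Total counts ranged from 27184356 to 31112342 in WT, from 28628414 to 29311041 in untreated and from 29943675 to 32102121 in treated mice, of which the 10 members held 0.293% to 0.438%. Values are given as counts per 1000000 (CPM) after TMM scaling of library sizes and come from 3′ ends of mRNA, so each gene is compared only with itself. Htt, the gRNA target, was counted at 181 to 191 CPM in WT, 140 to 149 CPM in untreated and 130 to 140 CPM in treated mice, and reads at its 3′ end cannot tell the knock-in allele from the mouse allele. The summed CPM of 14 striatal projection neuron markers was 8787 to 11520 in WT, 2950 to 3520 in untreated and 4541 to 4613 in treated mice. The markers were thus counted in all 9 libraries, and the 3 groups did not overlap, with treated mice between the others. In bulk tissue, fewer cells of a type and less RNA per cell cannot be told apart. Counts of 4 Y-linked genes were present in the 3 WT libraries and untreated replicate 1 (3435 to 5005) and were 0 in the other 5, so sex markers and group moved together. The summed CPM of 8 choroid plexus markers, the epithelium that lies in the ventricles, was 3804 in WT replicate 2, 1234 in WT replicate 3 and 1305 in treated replicate 3, against 37.0 to 247 in the other 6 libraries.

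Against WT, all 10 members had a log2 fold change below 0 in untreated mice (47.9% of all genes tested) and in treated mice (49.4%). In untreated mice 3 members fell past the threshold (an adjusted p under 0.05, from edgeR's quasi-likelihood test adjusted by Benjamini-Hochberg over all genes tested), namely the ER chaperone Hspa5, the HSP110 protein Hsph1 and the regulator Hsf1, where 6.1% of all genes tested fell, and 6 had an unadjusted P under 0.05, against 13.7% of all genes in that direction. No member rose, beside 4.58% of all genes. In treated mice none of the 10 passed in that test, where 2.78% of all genes fell, and 8 had an unadjusted P under 0.05, against 11.6% of all genes in that direction. DESeq2 called 5 members lower in untreated and 6 lower in treated mice. It also called more of all 19463 genes in untreated mice, 3473 against 2080 by edgeR in either direction. Its share of all genes in treated mice is not given here, so the 6 describe the calls only. Both comparisons share the 3 WT libraries, and the calls depended on WT replicate 2.

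**Figure D1:**
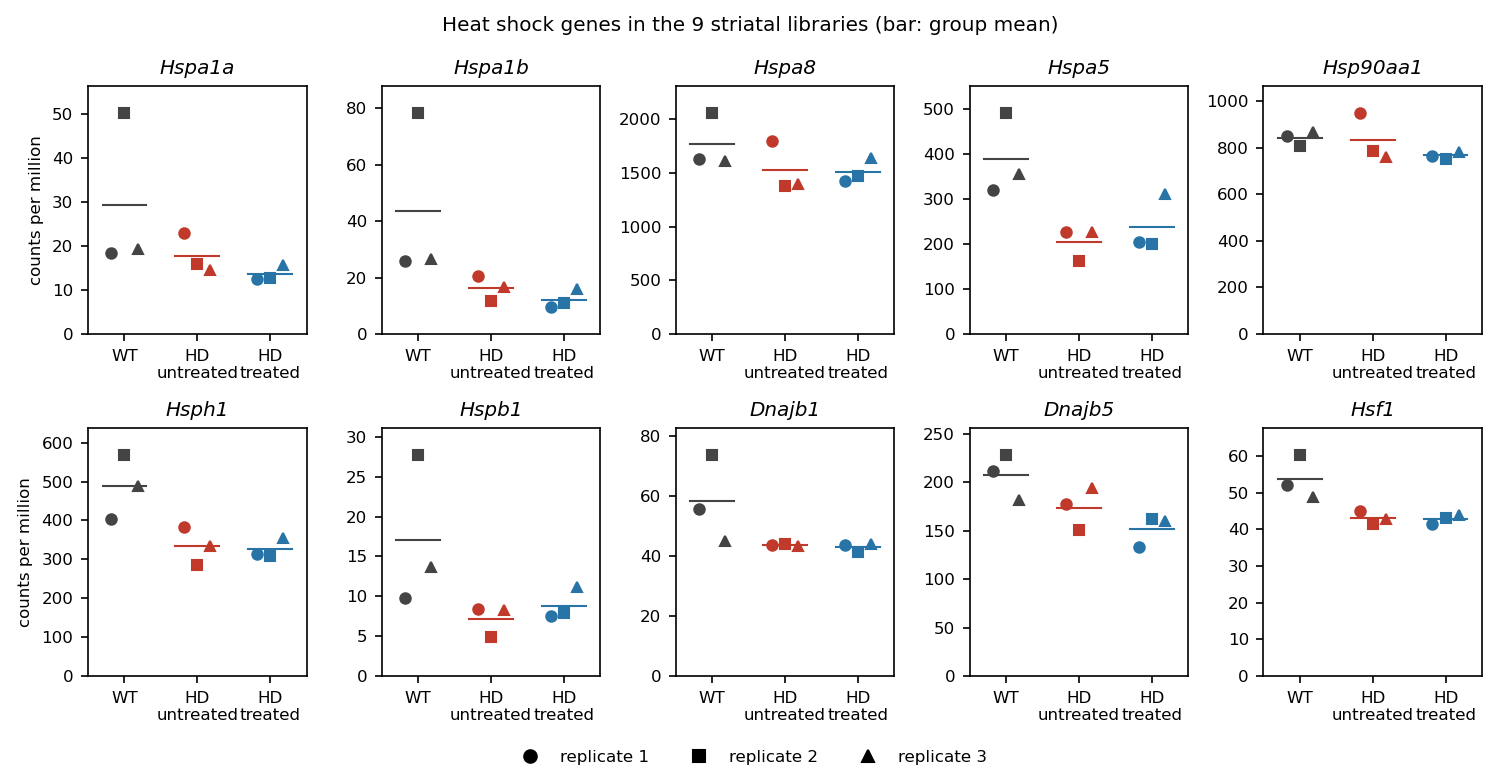
CPM of the 10 members (vertical axes, from 0) in WT, HD untreated and HD treated mice, with 1 point per mouse, the shape giving the replicate number and the bar the group mean. WT replicate 2 (square) is the highest of all 9 points for 9 genes, with Hsp90aa1 as the exception, and the 6 HD points lie below the 3 WT points for Hspa1b, Hspa5, Hsph1, Dnajb1 and Hsf1.

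The stress-inducible HSP70 genes Hspa1a and Hspa1b, neighbours that encode nearly the same protein, gave large but uneven differences, and Hspa1b the largest fold change of the 10. SE is the standard error of a log2 fold change. Hspa1b (ENSMUSG00000090877, chromosome 17) was measured at 25.9, 78.5 and 26.7 CPM in WT, 20.5, 11.6 and 16.8 CPM in untreated and 9.65, 11.0 and 16.0 CPM in treated mice. WT replicate 2 stood about 3 times above the other WT libraries (2.98 times their mean), yet all 6 HD values lay below the lowest WT value. Hspa1b was 2.69 times lower than WT in untreated mice (log2 fold change −1.42, SE 0.43, adjusted p = 0.0623) and 3.58 times lower in treated mice (log2 fold change −1.84, SE 0.43, adjusted p = 0.0501) by edgeR's quasi-likelihood test. Neither value passed the threshold. Hspa1a (ENSMUSG00000091971, chromosome 17) was measured at 18.4, 50.4 and 19.4 CPM in WT, 22.9, 15.8 and 14.6 CPM in untreated and 12.4, 12.8 and 15.8 CPM in treated mice. Its untreated values overlapped WT and its treated values lay below WT, with log2 fold changes of −0.72 (SE 0.36, adjusted p = 0.220) and −1.10 (SE 0.36, adjusted p = 0.124).

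The ratio of Hspa1b to Hspa1a counts, which needs no scaling between libraries, was 1.41, 1.56 and 1.37 in WT mice. It was 0.891, 0.732 and 1.15 in untreated mice and 0.776, 0.856 and 1.01 in treated mice. More reads were counted on Hspa1b than on Hspa1a in all 3 WT mice, and each of the 6 HD ratios lay below each WT ratio. WT replicate 2, in which both genes were far higher, had a ratio close to those of the other WT mice. A two-sided exact permutation test of the ratio gave p = 0.1 for either HD group against WT, which is the smallest p that 3 mice against 3 allow, and p = 0.8 for treated against untreated mice. The last 500 bases of the longest coding transcripts of the pair shared no stretch of 50 bases with any other annotated gene, and an antisense gene over Hspa1a, Gm20481, held at most 1 count. The ratio was examined after its values were seen.

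**Figure D2:**
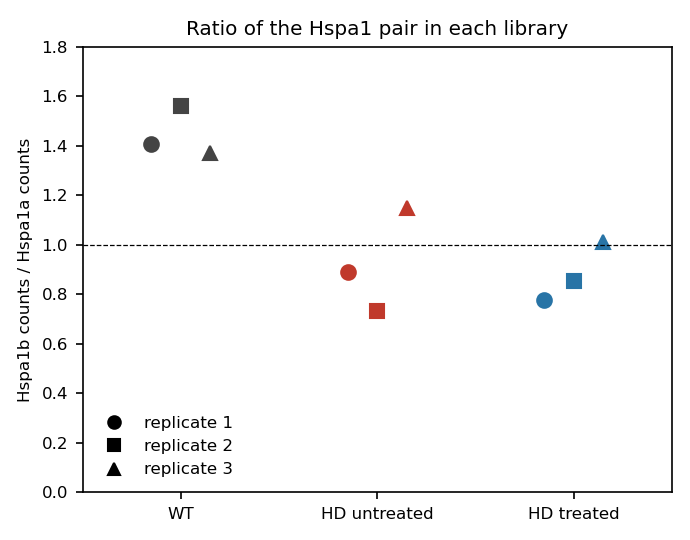
Ratio of Hspa1b counts to Hspa1a counts (vertical axis, no unit) in each mouse by group, with 1 point per mouse and a dashed line at equal counts. The 3 WT ratios run from 1.37 to 1.56 and the 6 HD ratios from 0.732 to 1.15.

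Hsph1 (ENSMUSG00000029657, chromosome 5), the HSP110 protein that exchanges nucleotide on HSP70 and takes part in disaggregation, was measured at 405, 569 and 489 CPM in WT, 383, 284 and 333 CPM in untreated and 315, 308 and 355 CPM in treated mice. All 6 HD values lay below all 3 WT values, by a small margin in untreated replicate 1. Hsph1 fell in untreated mice, with a log2 fold change at −0.55 (SE 0.14, adjusted p = 0.0390), and its log2 fold change in treated mice was −0.58 (SE 0.14, adjusted p = 0.0549), just outside the threshold of edgeR's quasi-likelihood test. Hspa8 (ENSMUSG00000015656, chromosome 9), the constitutive HSP70 of the cytosol that also uncoats clathrin vesicles at synapses, was measured at 1627, 2061 and 1608 CPM in WT, 1794, 1382 and 1393 CPM in untreated and 1422, 1475 and 1637 CPM in treated mice. Both HD groups overlapped WT. The log2 fold changes of Hspa8 were −0.21 (95% interval −0.52 to 0.09) in untreated and −0.22 (95% interval −0.53 to 0.08) in treated mice. Counts of Hspa8 are uncertain because 81.8% of the 50-base stretches at its 3′ end also occur in pseudogenes, of which Gm15459 took 3654 to 5427 counts per library.

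Hspa5 (ENSMUSG00000026864, chromosome 2), the HSP70 of the ER known as BiP, was measured at 321, 493 and 357 CPM in WT, 227, 163 and 227 CPM in untreated and 205, 200.3 and 312 CPM in treated mice. Untreated values were all well below WT, whereas treated replicate 3 came close to the lowest WT value. Hspa5 fell in untreated mice, with a log2 fold change at −0.92 (SE 0.22, 1.9 times lower, adjusted p = 0.0305), which was the smallest adjusted p among the members in edgeR's quasi-likelihood test. For Hspa5 in treated mice it was −0.71 (SE 0.22, 1.63 times lower, adjusted p = 0.105).

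Hsp90aa1 (ENSMUSG00000021270, chromosome 12), the stress-inducible HSP90 of the cytosol, differed least. It was measured at 853, 809 and 868 CPM in WT, 951, 786 and 759 CPM in untreated and 764, 753 and 784 CPM in treated mice. Untreated replicate 1 was the highest of all 9 libraries, and the treated values lay narrowly below WT. Its log2 fold changes were −0.02 (95% interval −0.23 to 0.19) in untreated and −0.14 (95% interval −0.35 to 0.08) in treated mice.

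Hspb1 (ENSMUSG00000004951, chromosome 5), the small heat shock protein HSP25, which holds unfolded chains and stabilises actin, was the least counted member. It was measured at 9.75, 27.8 and 13.6 CPM in WT, 8.38, 4.90 and 8.32 CPM in untreated and 7.48, 7.91 and 11.1 CPM in treated mice. Untreated values lay below WT and treated replicate 3 overlapped it. The log2 fold change of Hspb1 was −1.24 (SE 0.37, adjusted p = 0.0628) in untreated and −0.95 (SE 0.37, adjusted p = 0.178) in treated mice by edgeR's quasi-likelihood test. Of the 50-base stretches at its 3′ end, 16.0% also occur in the pseudogene Hsp25-ps1, which held 4 to 74 counts per library, with the highest count in WT replicate 2.

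The J-domain proteins Dnajb1 and Dnajb5 pass substrates to HSP70. Dnajb1 (ENSMUSG00000005483, chromosome 8) was measured at 55.8, 73.9 and 45.1 CPM in WT, 43.7, 44.2 and 43.3 CPM in untreated and 43.8, 41.5 and 44.2 CPM in treated mice. The 6 HD values stood close together just below WT replicate 3, while the WT values were spread. The log2 fold changes of Dnajb1 were −0.41 (SE 0.15, adjusted p = 0.103) and −0.43 (SE 0.15, adjusted p = 0.134) in untreated and treated mice by edgeR's quasi-likelihood test. Dnajb5 (ENSMUSG00000036052, chromosome 4) was measured at 211, 229 and 182 CPM in WT, 177, 151 and 194 CPM in untreated and 133, 162 and 160.3 CPM in treated mice. Its untreated values overlapped WT and its treated values lay below WT, with log2 fold changes of −0.25 (SE 0.12, adjusted p = 0.205) and −0.45 (SE 0.12, adjusted p = 0.0755).

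Hsf1 (ENSMUSG00000022556, chromosome 15), the transcription factor that induces many of the other members under stress, was measured at 51.9, 60.3 and 48.8 CPM in WT, 44.9, 41.4 and 42.7 CPM in untreated and 41.3, 43.0 and 43.8 CPM in treated mice. All 6 HD values lay below all 3 WT values and within a narrow range. Hsf1 fell in untreated mice, with a log2 fold change at −0.32 (SE 0.09, adjusted p = 0.0490), and its log2 fold change in treated mice was −0.33 (SE 0.09, adjusted p = 0.0743) by edgeR's quasi-likelihood test. HSF1 is largely controlled as a protein, by release from chaperones and by modification, and the mRNA does not measure that step.

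**Figure D3:**
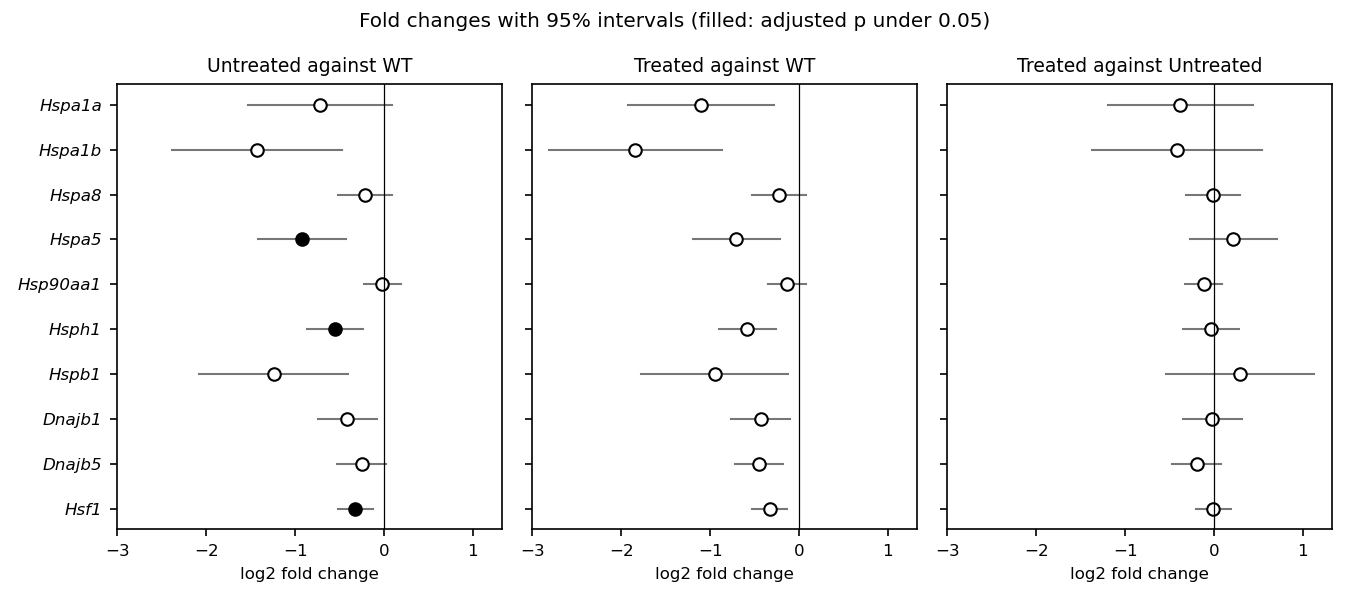
Log2 fold changes of the 10 members (horizontal axis) with 95% intervals in the 3 comparisons, where filled points have an adjusted p under 0.05. All points against WT lie below 0, those filled are Hspa5, Hsph1 and Hsf1 in untreated mice, and all intervals of treated against untreated mice include 0.

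Over the 10 members the median log2 fold change was −0.48 in untreated and −0.52 in treated mice against WT, where the median of all genes tested was 0.02 and 0.004. The untreated values did not overlap WT and were lower for 6 members, where 15.1% of all genes tested did so, and the treated values for 8 members, again beside 15.1% of all genes. All 6 HD libraries lay below all 3 WT libraries for 5 members (10.5% of all genes tested). The study states 2 rules, with at least a 2-fold change and an unadjusted P under 0.05 or, in its methods, under 0.01. At P under 0.05, Hspa1b and Hspb1 were lower in untreated mice and Hspa1a and Hspa1b in treated mice, beside 2.58% and 1.38% of all genes in that direction. At P under 0.01, Hspa1a in treated mice was not called. Without WT replicate 2, the log2 fold changes in untreated mice were −0.69 for Hspa1b and −0.70 for Hspb1, both under 2-fold, and in treated mice −0.46 for Hspa1a, also under 2-fold, and −1.10 for Hspa1b.

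Treated and untreated mice were compared to ask whether HTT gRNAs changed chaperone expression in HD mice. None of the 10 members passed in edgeR's quasi-likelihood test (adjusted p from 0.948 to 1), none had an unadjusted P under 0.05 (5.5% of all genes) and none was called by DESeq2, and 0% of all genes tested passed in edgeR. Values of the groups overlapped for all 10 members, where 8.83% of all genes lay apart and lower and 6.92% apart and higher. The median log2 fold change was −0.03. For Hspa5 the log2 fold change was 0.22 (95% interval −0.27 to 0.71), with treated replicate 3 high, and for Hspa1b it was −0.42 (95% interval −1.37 to 0.54). The narrowest interval was that of Hsf1, whose log2 fold change was −0.01 (95% interval −0.21 to 0.19).

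WT replicate 2 was the highest of all 9 libraries for 9 of the 10 members, where 23% of all genes tested had their highest value in it. It stood above the mean of the other WT libraries 2.98 times for Hspa1b, 2.66 times for Hspa1a, 2.38 times for Hspb1, 1.47 times for Dnajb1 and 1.45 times for Hspa5, and its ratio was 0.940 for Hsp90aa1. Without WT replicate 2 none of the 10 members passed against WT in either HD group in edgeR's quasi-likelihood test, and all 10 log2 fold changes stayed below 0 in both. The number of all genes that pass in this smaller fit is not given here, so the loss of calls is not particular to the members. In untreated mice the log2 fold change of Hspa5 was then −0.72 (adjusted p = 0.0967), that of Hsph1 −0.42 (adjusted p = 0.120), that of Hsf1 −0.23 (adjusted p = 0.108) and that of Hspa1b −0.69 (adjusted p = 0.164). Hspa1a went to −0.08 (adjusted p = 0.845), and the median over the members to −0.21. In treated mice without that library, Hspa1b stood at −1.10 (adjusted p = 0.0959) and the median at −0.38.

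**Figure D4:**
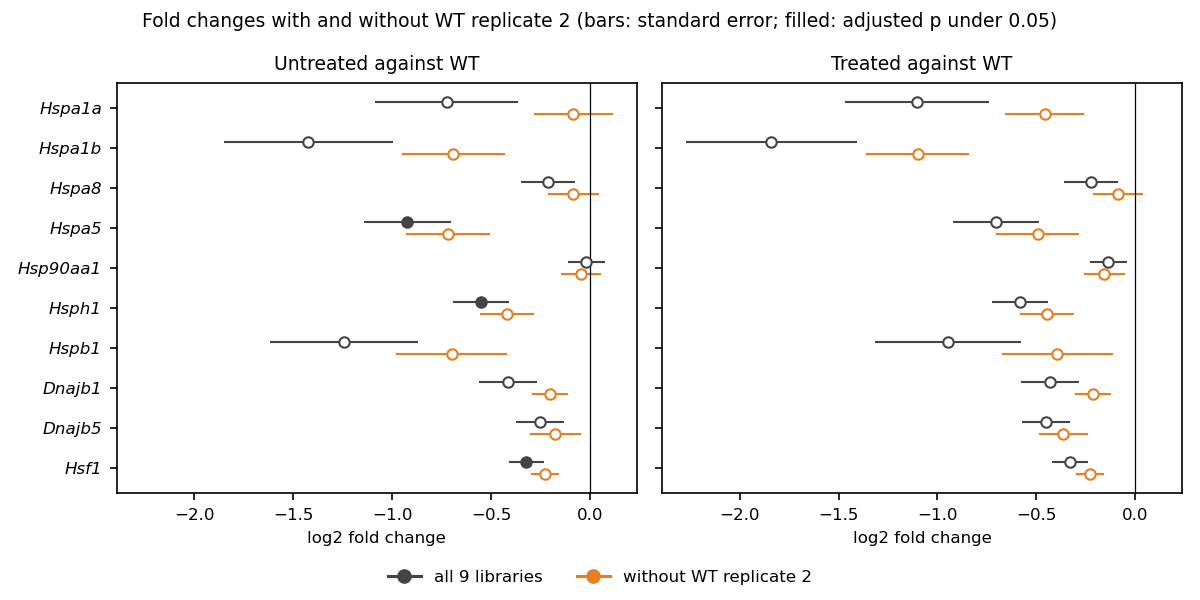
Log2 fold changes of the 10 members against WT (horizontal axis) with standard errors, from all 9 libraries (grey) and without WT replicate 2 (orange), where filled points have an adjusted p under 0.05. Without that library no point is filled, all points stay below 0, and Hspa1a in untreated mice moves from −0.72 to −0.08.

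Leaving out other libraries also moved the calls. Without WT replicate 1, Hspa1b, Hspa5, Hsph1 and Hspb1 passed in untreated mice and Hspa1b and Hsph1 in treated mice. Of all genes, 2584 then passed in untreated mice, against 2080 with all 9 libraries. Without WT replicate 3, Dnajb1 and Hsf1 passed in untreated and Hspa1b and Dnajb1 in treated mice. Without untreated replicate 2 or 3 no member passed in untreated mice, and without untreated replicate 3, Hspa1b and Hsph1 passed in treated mice. Without any 1 of the treated replicates, only Hspa5 passed in untreated mice. The number of all genes that pass also moves with the libraries used, so these gains and losses are a description of the calls.

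Choroid plexus markers were high in some of the libraries with high member values and not in others. Treated replicate 3, with 1305 CPM of these markers, had the highest treated value for 9 of the 10 members, all but Dnajb5 (34.2% of all genes tested). WT replicate 2, with 3804 CPM, had the highest WT value for 9 (37.4% of all genes). WT replicate 3, with 1234 CPM, and WT replicate 1, with 66.3 CPM, lay close together in Hspa1b, at 26.7 and 25.9 CPM. They were also close in the mean of the members' log2 CPM against the WT mean, at −0.19 and −0.24. By gene, WT replicate 3 was above WT replicate 1 for Hspa5 (357 and 321 CPM), Hsph1 (489 and 405 CPM) and Hspb1 (13.6 and 9.75 CPM). It was below WT replicate 1 for Dnajb1 (45.1 and 55.8 CPM), Dnajb5 (182 and 211 CPM) and Hsf1 (48.8 and 51.9 CPM). WT replicate 1 lay above all 6 HD libraries for 6 members, namely Hspa1b, Hspa5, Hsph1, Dnajb1, Dnajb5 and Hsf1 (22.6% of all genes). When the 3 libraries above 1000 CPM were left out, an alternative added after seeing the data that leaves WT replicate 1 as the only WT library and assumes that it varies like the other groups, none of the 10 members passed. The log2 fold changes were then −0.63 for Hspa5, −0.27 for Hsph1, −0.66 for Hspa1b and −0.04 for Hspa1a in untreated mice, with a median of −0.27 over the members.

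**Figure D5:**
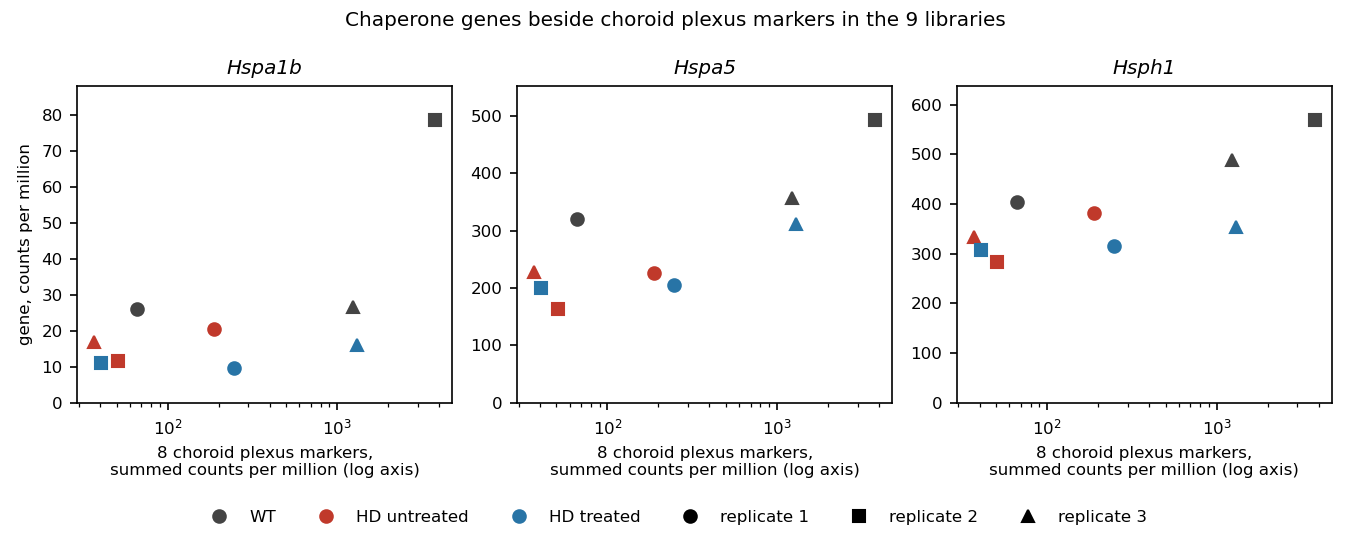
CPM of Hspa1b, Hspa5 and Hsph1 (vertical axes, from 0) against the summed CPM of 8 choroid plexus markers (horizontal log axis) in the 9 libraries, with colour for the group and shape for the replicate number. WT replicate 2 is highest on both axes, and WT replicate 1, with 66.3 CPM of the markers, lies above all 6 HD points in each panel.

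Y-linked counts also separated the groups. Untreated replicate 1, the HD library with such counts, lay below all 3 WT libraries for 7 members (Hspa1b, Hspa5, Hsph1, Hspb1, Dnajb1, Dnajb5 and Hsf1), where 29% of all genes tested did so, and had the highest untreated value for 7, where 33.8% of all genes did so. With the share of Y-linked counts as a covariate, none of the 10 members passed in either comparison with WT, the log2 fold changes of Hspa5, Hsph1 and Hsf1 in untreated mice were −0.86, −0.42 and −0.30 (adjusted p = 0.164, 0.233 and 0.221 by edgeR's quasi-likelihood test), and the number of all genes that passed went from 2080 to 457 in untreated and from 718 to 5 in treated mice. Within the 4 libraries with Y-linked counts, where untreated replicate 1 stands alone and is assumed to vary like WT, the median log2 fold change was −0.34 and none of the 10 members passed. The 5 libraries without such counts hold no WT mouse. Markers of other cells moved with the groups as well, since 9 microglia markers summed to 366 to 411 CPM in WT and 488 to 1297 CPM in HD mice and 9 lymphocyte markers to 2.19 to 8.46 and 21.4 to 165 CPM. The 7 oligodendrocyte markers summed to 9511 to 10450 CPM in WT, 7393 to 8099 CPM in untreated and 7815 to 11790 CPM in treated mice, lower without overlap in untreated mice, where 2 of the 7 fell. The 7 endothelial markers summed to 173.5 to 206 CPM in WT and 221 to 264 CPM in HD mice, higher without overlap, and 2 of the 7 rose in each HD group. The summed CPM of 8 astrocyte markers overlapped between WT (3837 to 4449 CPM) and HD mice (3926 to 4437 CPM). The mean of their log2 CPM against the WT mean did not, at −0.08 to 0.10 in WT and 0.13 to 0.42 in HD mice. The markers were mixed, since 4 of the 8 had a log2 fold change below 0 in untreated and 3 in treated mice. The part of choroid plexus, sex or any of these cell types in the chaperone values was not tested.

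The wider chaperone network was described by 132 other genes, of which 126 were tested. In untreated mice 14 fell and 1 rose (11.1% and 0.794% of the 126, beside 6.1% and 4.58% of all genes tested), and their median log2 fold change was −0.08. In treated mice 4 fell and none rose (beside 2.78% and 0.904% of all genes), again with a median of −0.08. The same shares of all genes apply to the counts of single lists below, several of which include members. At an unadjusted P under 0.05, 13.7% of all genes were lower in untreated and 11.6% in treated mice. DESeq2 called 23 of the 126 in untreated mice, where it called 3473 of all 19463 genes tested. In treated mice it called 12, which is given without its share of all genes and describes the calls only. None passed between treated and untreated mice by edgeR's quasi-likelihood test or DESeq2. An unadjusted P under 0.05 was found for 2 of them, or 1.59%, below the 5.5% of all genes tested. Without WT replicate 2 the counts were 4 and 1, and the 4 genes in untreated mice were Hspd1, Hspe1, Bag5 and Fkbp5.

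ER chaperones and genes of the unfolded protein response had the lowest median of the 9 chaperone lists in both comparisons with WT, with 6 of 23 lower in untreated mice (the member Hspa5 and, outside it, Hyou1, Pdia4, Manf, Creld2 and Xbp1), 1 of 23 in treated mice and medians of −0.36 in each. Pdia4, a protein disulfide isomerase, averaged 71.8 CPM in WT and 38.5 CPM in untreated mice, a log2 fold change at −0.90 (SE 0.21, adjusted p = 0.0277). Xbp1, a transcription factor of the unfolded protein response, had a log2 fold change at −0.58 (SE 0.13, adjusted p = 0.0286) in untreated mice, Manf, a secreted ER stress protein, −0.73 (SE 0.19, adjusted p = 0.0390), and Hyou1, the HSP110 of the ER, −0.51 (SE 0.14, adjusted p = 0.0430). In treated mice Herpud1, which works in ER-associated degradation, fell by 0.56 on the log2 scale (SE 0.13, adjusted p = 0.0432). Pdia4 stood at −0.73 (adjusted p = 0.0833) and Trib3, a pseudokinase induced by ER stress, at −1.09 (adjusted p = 0.103) in treated mice. These adjusted p-values are from edgeR's quasi-likelihood test, as are those that follow.

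Among HSP70 and HSP110 genes 4 of 15 were lower in untreated mice (Hspa5, Hsph1, Hyou1 and Hspa12b) and 1 of 15 in treated mice (Hspa12b). Hspa12b, a distant HSP70 relative of endothelium, was measured at 11.0 to 13.0 CPM in WT, 7.09 to 8.28 CPM in untreated and 7.58 to 8.40 CPM in treated mice. Its log2 fold changes against WT were −0.62 (SE 0.12, adjusted p = 0.0160) and −0.59 (SE 0.12, adjusted p = 0.0344), while the 7 endothelial markers had a median above 0 in both comparisons (0.39 and 0.38). Hspa14 had a log2 fold change of −0.32 (adjusted p = 0.0871) in untreated and Hspa4 of −0.24 (adjusted p = 0.111) in treated mice. Hspa1l, which lies beside Hspa1a and is known as the testis HSP70, was measured at 6.86 to 8.31 CPM in WT, 8.90 to 11.6 CPM in untreated and 6.07 to 8.61 CPM in treated mice, with a log2 fold change of −0.40 between treated and untreated mice (unadjusted P = 0.0413, adjusted p = 0.889).

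Of the 4 HSP90 genes none passed in either comparison with WT by edgeR's quasi-likelihood test, and 3 and 2 had an unadjusted P under 0.05, while DESeq2 called Hsp90ab1 and Hsp90b1 in untreated mice and none of the 4 in treated mice. Hsp90ab1, the constitutive HSP90 of the cytosol, had log2 fold changes of −0.30 (adjusted p = 0.0862) and −0.28 (adjusted p = 0.149) against WT in untreated and treated mice, Hsp90b1 of the ER −0.36 (adjusted p = 0.0926) and −0.37 (adjusted p = 0.130), and Trap1 of mitochondria −0.18 (adjusted p = 0.160) and −0.14 (adjusted p = 0.344). All 3 values were below 0 in both groups. The median of the list was −0.24 and −0.21.

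Chaperonins and prefoldin had 4 of 17 genes lower in untreated mice and none in treated mice, where 6 were lower and 1 higher at an unadjusted P under 0.05 and DESeq2 called Hspd1. The mitochondrial pair Hspd1 and Hspe1, encoded next to each other, had log2 fold changes of −0.34 (SE 0.07, adjusted p = 0.0188) and −0.55 (SE 0.14, adjusted p = 0.0386) in untreated mice. In treated mice they stood at −0.23 (adjusted p = 0.0958) and −0.43 (adjusted p = 0.119). Cct3 and Tcp1, subunits of the cytosolic chaperonin that folds actin and tubulin, had −0.33 (adjusted p = 0.0385) and −0.25 (adjusted p = 0.0478) in untreated mice, and Cct7 had −0.27 (adjusted p = 0.125) in treated mice.

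Cochaperones of HSP70 and HSP90 had 3 of 26 genes lower in untreated mice and 2 of 26 in treated mice. Bag5, a nucleotide exchange factor of HSP70, gave the smallest p-value of the network, at 59.2 to 64.1 CPM in WT, 43.0 to 46.5 CPM in untreated and 50.1 to 52.2 CPM in treated mice. The 3 groups did not overlap, with treated mice between the others. Treated values lay apart and above untreated ones for 4.76% of the 126 wider genes, fewer than the 6.92% of all genes tested. Its log2 fold change was −0.49 (SE 0.07, adjusted p = 0.00329) in untreated mice, −0.28 (SE 0.07, adjusted p = 0.0533) in treated mice against WT, and 0.21 (SE 0.07, unadjusted P = 0.0119, adjusted p = 0.886) between treated and untreated mice. Fkbp5, an HSP90 cochaperone of steroid receptors that glucocorticoids induce, was at 45.4 to 86.6 CPM in WT, 26.3 to 36.1 CPM in untreated and 25.6 to 30.0 CPM in treated mice. Fkbp5 fell by 0.96 on the log2 scale in untreated mice (SE 0.23, adjusted p = 0.0327) and by 1.08 in treated mice (SE 0.23, adjusted p = 0.0385), and Ttc4 fell by 0.32 (adjusted p = 0.0253) and 0.32 (adjusted p = 0.0471).

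J-domain proteins, the largest list, had 1 of 44 genes lower in untreated mice and none in treated mice, beside 6.1% and 2.78% of all genes tested. In treated mice 8 were lower at an unadjusted P under 0.05, beside 11.6% of all genes, and DESeq2 called Dnajc7 and Gak. The 8 include the members Dnajb1 and Dnajb5. The medians were −0.04 and −0.06. The gene lower in untreated mice was Dnajc7, at −0.27 (SE 0.06, adjusted p = 0.0251). Dnajb4 had −0.31 (adjusted p = 0.0665) and Dnajc21 0.60 (adjusted p = 0.0684) in untreated mice, and Gak, which works with Hspa8 in clathrin uncoating, had −0.24 (adjusted p = 0.0906) in treated mice. Of the 6 small heat shock proteins tested, Hspb3 was the only gene of the network that rose. Hspb3, a muscle and motor neuron small heat shock protein, was near the detection limit, at 0.0665 to 0.604 CPM in WT (2 to 16 counts), 1.51 to 2.05 CPM in untreated (43 to 61 counts) and 0.644 to 0.955 CPM in treated mice (21 to 29 counts). The groups did not overlap, with treated mice between the others. Treated values lay apart and below untreated ones for 6.35% of the 126 wider genes, fewer than the 8.83% of all genes tested. The log2 fold change of Hspb3 in untreated mice was 2.64 (SE 0.57, adjusted p = 0.0221). It was 1.56 (adjusted p = 0.159) in treated mice against WT and −1.08 (95% interval −2.22 to 0.06, adjusted p = 0.889) between treated and untreated mice.

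Among heat shock factors and their regulators Hsf1 was the 1 of 5 genes that fell in untreated mice, and none of the 5 passed in treated mice, where Hsf1 had an unadjusted P under 0.05 and a DESeq2 call. Hsf4, a factor known from the lens, had a log2 fold change of 0.43 (adjusted p = 0.0989) in untreated mice, and Hsf2 and Hsbp1 had 0.09 (adjusted p = 0.698) and 0.06 (adjusted p = 0.669). A list of 20 genes known to be induced by HSF1 repeats the members Hspa1a, Hspa1b, Hspa8, Hsp90aa1, Hsph1, Hspb1 and Dnajb1. Of the 20, 3 were lower in untreated mice, beside 6.1% of all genes tested. None was lower in treated mice (beside 2.78%), where 10 were lower at an unadjusted P under 0.05 (beside 11.6%). In each group 18 of 20 had a log2 fold change below 0, beside 47.9% and 49.4% of all genes, and the medians were −0.24 and −0.26. Of 15 immediate early genes, which respond to neuronal activity and tissue handling, 5 were lower and 2 higher in untreated mice, beside 6.1% and 4.58% of all genes. In treated mice 3 were lower and 2 higher, beside 2.78% and 0.904%.

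Within groups most members varied together from mouse to mouse. After each group's mean was subtracted from log2 CPM, the median Pearson r over the 45 pairs of members was 0.707 over the 9 libraries, and 31 pairs were above 0.5. The median r of a member with the 11105 genes searched was 0.017. The 9 points share their library, depth and tissue piece between genes and include WT replicate 2, so the values are a description. Hspa1b and Hspb1 were the closest pair (r = 0.955), followed by Hspa1b and Hsf1 (r = 0.938) and Hspa1a and Hspa1b (r = 0.936), and Hsp90aa1 stood apart, with r from −0.256 with Dnajb1 to 0.501 with Hspa8.

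The genes most like each member by the same measure included other chaperones for several of them. Stip1, the cochaperone that bridges HSP70 and HSP90, was most like Hspa8 (r = 0.994), followed by Yipf1 (r = 0.983) and the pseudogene Gm15459, which shares sequence with it. Hspa1b was most like the chaperonin subunit Cct5 (r = 0.987), the disulfide isomerase Pdia6 (r = 0.986) and Cog1 (r = 0.981), and Hspa1a like Bcat2 (r = 0.990), Klhdc7a (r = 0.987) and Creld1 (r = 0.985). Hspa5 was most like Eif1 (r = 0.974), Pdia3 (r = 0.959) and Atg4b (r = 0.957), and Hsp90aa1 like Cdkal1 (r = 0.990), Glrx3 (r = 0.967) and the J-domain protein Dnaja2 (r = 0.962). Hsf1 was most like Adam15 (r = 0.992), Cct7 (r = 0.990) and Thap4 (r = 0.987). Hsph1 was most like Tut1 (r = 0.992), Dxo (r = 0.978) and Ddx19a (r = 0.970), and Hspb1 like Aox1 (r = 0.973), Nup98 (r = 0.966) and Rgl1 (r = 0.965). For Dnajb1 the closest genes were Timm29 (r = 0.985), Ndufa6 (r = 0.984) and Huwe1 (r = 0.984), and for Dnajb5 they were Gabarap (r = 0.987), Znhit1 (r = 0.963) and Tceanc2 (r = 0.958).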

How the data were processed

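Per the labels, striatal RNA was primed with oligo-dT for 3′ mRNA sequencing, and the primer also carries a unique tag. The authors deposited whole-number counts of reads per Ensembl gene without normalization. Whether the tag was used to collapse copies, and the mouse genome build, are not given in the sources used here. The study's methods name STAR as the aligner, whereas the submitters' processing notes name Trimmomatic 0.39, FastQC 0.11.9, HISAT2 2.2.1 and featureCounts 2.0.1. Symbols were taken from GENCODE M21 and matched 94.1% of the 55357 gene IDs, which hold 99.8% of the counts. Since no source names the mouse build, genes are given by chromosome, and start and end positions belong only to the RefSeq sequences on GRCm38.p6. Pig counts were not used here.

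Counts were fitted in R 4.3.3 with edgeR 4.0.16. Low genes were removed by filterByExpr (group design), TMM factors scaled the libraries, and 1 fit of all 9 was made by glmQLFit (6 residual degrees of freedom) and tested by glmQLFTest, with Benjamini-Hochberg adjustment over 19463 genes. A gene passed at an adjusted p under 0.05. A standard error is the log2 fold change over the root of its F value. Log2 CPM used a prior count of 2. The 10 members and the gene lists were chosen with earlier results of these data known. Named genes are all members, genes among the 3 of each chaperone list with the smallest P in a comparison, and the 3 genes most like each member among genes with an average log2 CPM of at least 3, while the others named in a list are all that passed. Alternatives were DESeq2 1.42.0, other scalings, filters and fits, and each mouse left out. The fit was also tested on simulated counts with known changes. Replicates are separate mice. The p-values of edgeR rest on a spread between mice that was estimated over the 3 groups together, with information from other genes. matplotlib 3.10.9 (Python 3.11.15) drew the figures.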

Additional observations from a re-analysis of the deposited data

How the results depend on the processing

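All 10 members kept a log2 fold change below 0 against WT under most alternatives (173 of 180 values in untreated and 168 of 170 in treated mice), and no called value changed sign. The calls were less stable. In untreated mice, where 3 members and 15 wider chaperone genes passed, DESeq2 called 5 and 23, testing without a filter on low counts 0 and 6, and fitting only the compared groups 1 and 3. The number of all genes called moved too, from 2080 to 3473 by DESeq2, 1096 without the filter and 726 with only the compared groups. The covariate of Y-linked counts left 0 members and 1 wider gene, and 457 of all genes. Leaving out the 3 libraries rich in choroid plexus markers, or using only the 4 libraries with Y-linked counts, left 0 and 0, and both of these were added after seeing the data. The wider genes numbered 1 at an unadjusted P under 0.05 or under 0.01 with a 2-fold change. In treated mice, where 0 members and 4 wider genes passed, DESeq2 called 6 and 12, a minimum of 10 counts in every library or a fit of only the compared groups gave 1 member, and the 2-fold rule gave 2 members at P under 0.05 and 1 member with 2 wider genes at P under 0.01. The wider count was 0 without TMM factors, without the filter, with the Y-linked covariate and without the 3 choroid-rich libraries. Leaving out 1 mouse at a time gave 0 to 4 members and 1 to 16 wider genes in untreated mice, and 0 to 2 and 0 to 5 in treated mice. The median over the members ran from −0.57 to −0.21 in untreated and from −0.59 to −0.38 in treated mice. No member and no wider gene passed between the HD groups under any of these alternatives. Counts in treated mice and with 1 mouse left out are given here without the number of all genes called, so they describe the calls only. The cause of these moves was not tested.

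Replicate numbers are shared by the groups in the labels, but same-numbered mice did not deviate together (r of their deviations from group means from −0.08 to 0.24, the highest between untreated and treated replicate 3), so the block shares only a number. With the replicate block 1 member and 9 wider genes passed in untreated mice, and 0 members and 2 wider genes in treated mice. Depth did not limit the 10 members, each with at least 146 counts in every library, whereas Hspb3 at 2 to 16 counts in WT was near the limit.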
